A study of Mus musculus with 8 samples.

Results

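The comparison set 4 lungs of LysM-DTR recipients against 4 lungs of wild-type recipients, whichever marrow the recipients carried. All 8 animals were male bone marrow chimeras aged 22 weeks whose lungs were taken 72 hours after diphtheria toxin. LysM-DTR mice carry the diphtheria toxin receptor under the lysozyme M promoter, so the toxin can kill their lysozyme M expressing cells. On the LysM-DTR recipient side were LL, with LysM-DTR marrow, and WL, with wild-type marrow. On the wild-type recipient side were LW, with LysM-DTR marrow, and WW, with wild-type marrow. Each group had 2 mice with 1 array each, so each marrow genotype was present equally on both sides. No array came from an animal without toxin, so an effect of the toxin and another effect of the recipient genotype cannot be told apart. Of 25830 genes measured, 4538 (17.6%) had all 4 arrays of one side above all 4 of the other: 2253 were higher (8.72%) and 2285 lower (8.85%) in LysM-DTR recipients.

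In a bone marrow chimera most blood cells come in time from the donor, while the epithelium, endothelium and connective tissue remain those of the recipient. Lysozyme M, encoded by Lyz2, is made by monocytes, macrophages and neutrophils and, in the mouse lung, also by alveolar type 2 cells. These secrete surfactant and replace epithelium that is lost from the alveoli. Diphtheria toxin blocks protein synthesis in the cells it enters. The recipient comparison asks which lung transcripts differ when the cells that stay with the recipient carry the receptor.

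Levels are log2 signals relative to the 75th percentile of the array, and differences are LysM-DTR recipients minus wild-type recipients. The 75th percentile lay between 208.6 and 324.4 intensity units, and 66.3 to 72.3% of the spots were well above background. Genes typical of lung were bright on every array: surfactant protein C (Sftpc) was at 7.41 to 9.81, the alveolar type 1 marker Ager at 7.90 to 8.63 and the club cell secretoglobin Scgb1a1 at 8.99 to 9.68. All arrays shared 1 slide and 1 scan. The arrays of LL and WL lay together in one slide column, and those of LW and WW in its other column, so the recipient genotype and the slide column cannot be told apart in any difference given here.

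WL replicate 1 stood apart from the other 3 LysM-DTR recipients. Across genes the WL mice correlated at r = 0.96, against 0.99 to 0.992 within the other groups (genes are not independent replicates). On the 22588 genes above background on all 8 arrays, 2078 were wholly higher (9.2%), 2149 wholly lower (9.51%) and 4227 either (18.7%). Of the 2078 higher genes, WL replicate 1 was the LysM-DTR recipient array nearest to the wild-type side in 85.6%, and of the 2149 lower ones in 78.6%. Without WL replicate 1, 6535 genes (25.3%) lay wholly above and 5763 (22.3%) wholly below. Counts for gene lists are therefore also given without this array, to be read against these 25.3% and 22.3%. Leaving out an array cannot take a gene out of such a count, so the counts can only stay or rise.

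By limma over all genes, with 2 mice in each of the 4 groups, 162 genes rose (0.627%) and 165 fell (0.639%; 1.27% in all) at an adjusted p under 0.05, and 8059 had an unadjusted p under 0.05. Of the 327 called genes, 195 also had sides that did not overlap, 140 higher and 55 lower. The other 132 overlapped, and 110 of them were lower. Cell division genes, those of the mitosis, DNA replication and histone lists, made up 45 of the 140 and 0 of the 55, against 96 of all 25830 genes (0.372%). The calls depended on single arrays. By limma, 0 genes were called without LL replicate 1, LL replicate 2, LW replicate 1, LW replicate 2 or WW replicate 1 (4458 to 5461 with an unadjusted p under 0.05) and 11 without WW replicate 2, against 12512 without WL replicate 1 and 3428 without WL replicate 2. The single mouse that remains in such a group is assumed to vary like the others.

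Over all non-overlapping genes above background on all arrays, the marrow genotypes gave nearly the same median difference: 0.57 and 0.54 for the higher genes, with LysM-DTR and wild-type marrow, and -0.51 and -0.50 for the lower ones. The 2 differences lay within 0.5 of each other in 91.2% and 89.5% of them. The non-overlap rule gives both differences the same sign, so agreement in sign was fixed by how these genes were picked. The medians were themselves near 0.5, and the share within 0.5 over all genes was not counted. The called genes were picked by another rule and had larger differences, so the 2 sets cannot be set against each other. Among called genes above background on all arrays, the 119 higher ones (0.527%) had a median difference of 1.43 with LysM-DTR marrow (LL minus LW) and 1.14 with wild-type marrow (WL minus WW). In 74.8% of them these 2 differences lay within 0.5 of each other. The 110 lower ones (0.487%) had a median of -2.61 with LysM-DTR marrow and -0.47 with wild-type marrow, and 11.8% lay within 0.5. The interaction, which tests whether the recipient difference depends on the marrow, passed for 16 genes in all (0.0619%), 15 with a negative (0.0581%) and 1 with a positive interaction (0.00387%). Of the 16, 15 were called lower in the recipient comparison, and none was among the 119 higher genes. Within one marrow genotype, 334 genes were higher (1.29%) and 389 lower (1.51%) in LL than in LW (2.8% in all), while 1 gene passed between WL and WW (0.00387%), with 2112 at an unadjusted p under 0.05.

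Genes of mitosis and cytokinesis were higher in LysM-DTR recipients by nearly equal amounts over both marrow genotypes. In mitosis the kinase Cdk1 with its cyclins drives entry, the kinetochore ties chromosomes to the spindle, the anaphase promoting complex with Cdc20 releases the sister chromatids, and the central spindle and a contractile ring divide the cell. Of 44 genes, 34 rose, none fell and 10 did not pass, and 38 (86.4%) lay wholly above, against 8.72% of all genes. The list median was 1.46, with 1.51 for LL minus LW and 1.39 for WL minus WW, against -0.01 over all genes. With WL replicate 1 left out, the count wholly above, which cannot fall, stayed at 38 and the median was 1.48. With normexp background correction the median was 0.90. Relative to the wild-type recipients, the list mean was 1.42 and 1.40 in LL, 1.04 in WL replicate 1 and 1.43 in WL replicate 2, and -0.13 to 0.09 on the wild-type recipient arrays.

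The regulators of mitotic entry and exit were among the genes with the widest separation. Cdk1 was at -1.26 and -1.39 in LL, -2.22 and -0.77 in WL, -3.84 and -4.04 in LW, and -4.03 and -3.77 in WW. The sides were 1.56 apart at their nearest arrays, the difference was 2.52 (SE 0.31, adjusted p = 0.0303 by limma), and the lowest LysM-DTR recipient was WL replicate 1. Cdc20, the activator of the anaphase promoting complex, was at 2.02 and 2.08 in LL and 1.79 and 2.01 in WL, against 0.22 to 0.32 on the other side, a difference of 1.70 (SE 0.10, adjusted p = 0.0181 by limma). It was nearly alike over the marrow genotypes, with 1.79 (SE 0.14) for LL minus LW and 1.61 (SE 0.14) for WL minus WW. The cyclins Ccnb1, Ccnb2 and Ccna2 rose by 1.68, 1.69 and 1.39, and the kinases Plk1, Aurka and Aurkb by 1.72, 1.71 and 1.24. Foxm1, a transcription factor of the mitotic programme, rose by 1.33, and Mki67, the usual marker of dividing cells, by 1.24 (SE 0.12). Mki67 was at 2.33 to 2.47 on all 4 LysM-DTR recipient arrays, WL replicate 1 included, and at 0.95 to 1.34 on the others.

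The kinetochore and spindle genes followed. Nuf2, a subunit of the Ndc80 complex that binds microtubules, was at -1.16 and -1.29 in LL and -1.34 and -1.27 in WL, against -2.84 to -2.55 in wild-type recipients (difference 1.44, SE 0.10). Spc24, of the same complex, was at 1.26 and 1.22 in LL and -0.31 and 0.93 in WL, against -1.79 to -1.53 (difference 2.40, SE 0.27). Its partner Ndc80 itself did not pass and overlapped, at 0.30 (SE 0.20, adjusted p = 0.319 by limma). Kif2c, a kinesin that takes microtubules apart at the centromere, was at -3.60 to -3.51 in LysM-DTR recipients and not above background on any wild-type recipient array, and was at least 2.23-fold higher. Such a bound sets the bright side's mean against the lowest signal that is above background on the dim side. Of the genes wholly apart, 88 higher and 22 lower ones were at background on a whole side. They passed the filter on dim probes only through the other side.

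For cytokinesis, Prc1, which bundles microtubules of the central spindle, was at 1.46 and 1.19 in LL and 1.20 and 1.28 in WL, against -0.31 to -0.08 (difference 1.47, SE 0.12). Of its 4 other probes, 1 gave a like difference of 1.46, while 2 dimmer ones stood at 0.15 and 0.21 and overlapped. All of these were above background on every array. The remaining probe, which was not, gave 1.03. Ect2, the exchange factor that starts the contractile ring, was at -0.02 and -0.04 in LL and -1.12 and -0.12 in WL, against -2.54 to -2.40 (difference 2.15, SE 0.22). Ect2 and Racgap1, its partner, both rose, Racgap1 by 0.82 (SE 0.10). The members with the smallest or negative differences were Cdc25b at -0.20, Knstrn at -0.11, Cep55 at 0.07 and Kif23 at 0.12. These 4 overlapped, and the lowest adjusted p among them was 0.451 by limma, for Cdc25b. Among the 44 genes the smallest adjusted p of the interaction was 0.418, for the spindle checkpoint kinase Ttk.

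**Figure D1:**
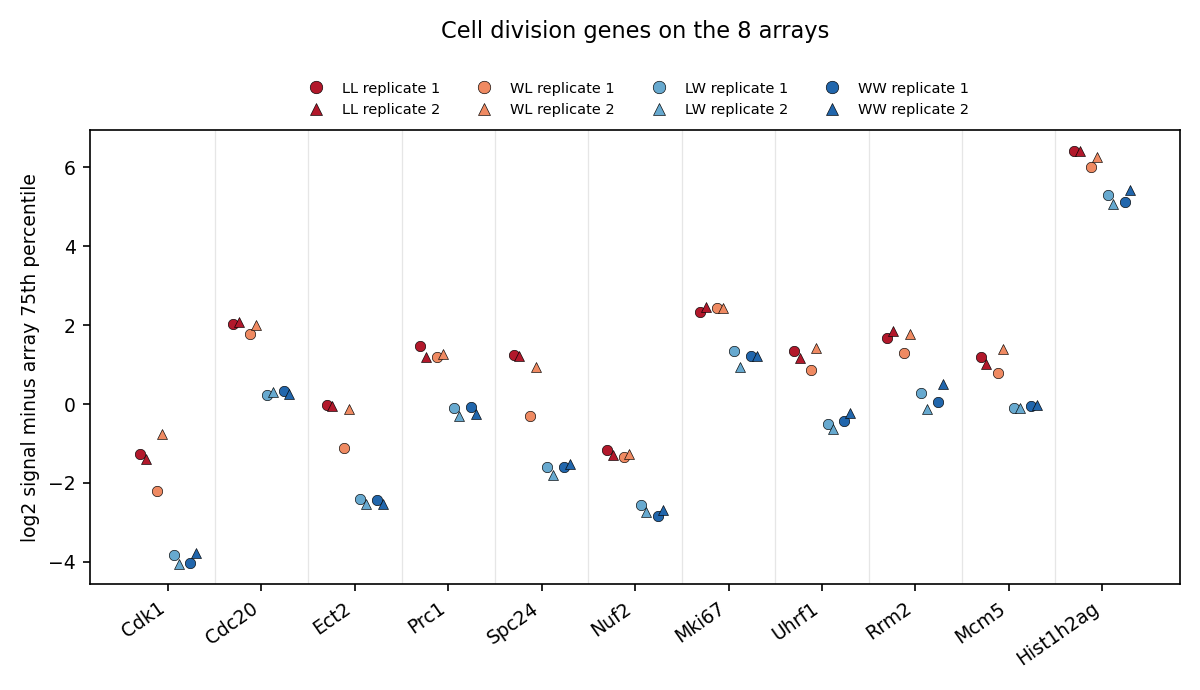
Level of 11 cell division genes on each of the 8 arrays (vertical axis, log2 signal minus the 75th percentile of the array); colours are the 4 groups and shapes the 2 mice of a group. In each gene all 4 LysM-DTR recipient arrays (LL and WL) lie above all 4 wild-type recipient arrays (LW and WW). WL replicate 1 is the lowest of its side in every gene shown but Prc1 and Mki67, and in Mki67 it is level with the others.

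Since these genes moved together, the bases before their start sites are shown for the 4 with the widest gap that have an entry in the RefSeq promoter table (GRCm38.p6). Each run is the 250 bases before the start, 5′ to 3′ on the strand of the gene, and capitals mark 3 motifs on either strand. The first is CCAAT, which the factor NF-Y binds. The second, the cell cycle homology element, is written TTTGAA in one form and in its other form, which reads alike on both strands, TTCGAA. The third is the E2F site in the form GGCGGGA. On the opposite strand the letters of the first appear as ATTGG and those of the second as TTCAAA. A match is a description of the letters and not a site in use. Cdk1 lies at chr10:69352913-69353162 and Kif2c at chr4:117178773-117179022. Cdc20 lies at chr4:118437344-118437593 and Ect2 at chr3:27153879-27154128, all on the minus strand.
Kif2c: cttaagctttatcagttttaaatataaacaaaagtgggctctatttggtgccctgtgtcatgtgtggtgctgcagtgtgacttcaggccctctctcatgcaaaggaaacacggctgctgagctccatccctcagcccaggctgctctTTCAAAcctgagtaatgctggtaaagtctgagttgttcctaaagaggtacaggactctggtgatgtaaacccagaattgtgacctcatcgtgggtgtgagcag
Cdk1: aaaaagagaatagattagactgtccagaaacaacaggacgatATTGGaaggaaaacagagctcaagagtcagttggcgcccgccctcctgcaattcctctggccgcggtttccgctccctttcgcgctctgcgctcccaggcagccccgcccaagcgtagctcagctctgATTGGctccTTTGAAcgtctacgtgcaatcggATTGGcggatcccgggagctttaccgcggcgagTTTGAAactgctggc
Cdc20: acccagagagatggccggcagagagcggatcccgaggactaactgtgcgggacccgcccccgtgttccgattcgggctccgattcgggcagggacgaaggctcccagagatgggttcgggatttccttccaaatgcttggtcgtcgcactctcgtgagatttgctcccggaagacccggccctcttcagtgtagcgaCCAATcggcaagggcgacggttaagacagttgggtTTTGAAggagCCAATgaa
Ect2: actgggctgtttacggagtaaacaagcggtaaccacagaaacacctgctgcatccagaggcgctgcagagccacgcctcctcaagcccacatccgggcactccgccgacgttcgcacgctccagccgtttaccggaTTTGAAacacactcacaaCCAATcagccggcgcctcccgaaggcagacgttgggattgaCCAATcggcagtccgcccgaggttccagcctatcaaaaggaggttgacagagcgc

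Cdk1 holds 3 CCAAT and 2 TTTGAA or TTCGAA matches, Cdc20 and Ect2 hold 2 and 1, and Kif2c holds 0 and 1. Over windows from 250 bases before to 50 after the start, 29 of the 37 mitosis genes with an entry (78.4%) held TTTGAA or TTCGAA, against 21.7% of all 27025 genes in the table, where a gene counts if any of its windows does. CCAAT was in 75.7% against 41.1%, and GGCGGGA in 27% against 12.7%. Over the 14505 genes tested here that have an entry, the shares were 17.7% for TTTGAA or TTCGAA, 42.2% for CCAAT and 19.5% for GGCGGGA. Of the 28 DNA replication genes with an entry, 25% held TTTGAA or TTCGAA, 60.7% CCAAT and 35.7% GGCGGGA. Among all non-overlapping genes with an entry, TTTGAA or TTCGAA was in 20.6% of 1325 higher and 18.5% of 1316 lower genes, and GGCGGGA in 23.5% and 20.1%.

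Genes of DNA replication and the G1/S step, which license and copy the DNA before mitosis, lay higher by a smaller amount. Of 35 genes, 7 rose, none fell and 28 did not pass, and 31 (88.6%) lay wholly above; the median was 0.80. With WL replicate 1 left out, the count wholly above, which cannot fall, stayed at 31 and the median was 0.95. Uhrf1, which carries DNA methylation over to the new strand, was at 1.34 and 1.17 in LL and 0.86 and 1.43 in WL, against -0.62 to -0.24 (difference 1.65, SE 0.15, adjusted p = 0.0205 by limma). The helicase subunit Mcm5 rose by 1.16 (SE 0.15) and the ribonucleotide reductase subunit Rrm2 by 1.48 (SE 0.19). Genes that overlapped included Cdc45 at -0.52, Cdc7 at 0.04 and E2f1 at 0.20. In Cdc45, WW replicate 1 was at -0.55 against -3.42 to -2.97 on the other 7 arrays.

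Of 17 clustered histone genes, which supply the protein that packs new DNA, 4 rose, none fell and 8 (47.1%) lay wholly above, with a median of 0.80. Leaving out WL replicate 1, 10 lay wholly above and 2 wholly below, and with normexp the median was 0.32. Hist1h2ab was at 3.76 to 3.86 on all 4 LysM-DTR recipient arrays and 2.56 to 3.02 on the others (difference 0.99, SE 0.14). Hist1h2ag rose by 1.05 (SE 0.13), Hist1h1a by 0.91 (SE 0.12) and Hist1h2ak by 0.80 (SE 0.12). Hist1h3g was above background on all 4 LysM-DTR recipient arrays and on no other, at least 5.04-fold higher, but did not pass (adjusted p = 0.0551 by limma). Histone genes of a cluster are near-identical, so a probe can read several copies.

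Among the 12 higher genes with the widest gaps of those above background everywhere, some belonged to none of these lists. Pbk, a mitotic kinase, was at -0.82 and -0.85 in LL and -1.57 and -0.62 in WL, against -3.35 to -3.03 (difference 2.21, SE 0.21). Cdkn3, a phosphatase of the cell cycle, rose by 2.14 (SE 0.21), Iqgap3 by 1.94 (SE 0.21) and Shcbp1, a partner of the central spindle, by 1.52 (SE 0.12). Aunip, which binds Aurora A, rose by 2.23 (SE 0.32), and Fam83d, a spindle protein that was at background on all wild-type recipient arrays, was at least 3.23-fold higher. Rgs16, a brake on G protein signalling, stood at 2.95 (SE 0.51, adjusted p = 0.0584 by limma), and the matrix protein thrombospondin 4 (Thbs4) was at least 3.21-fold higher (adjusted p = 0.0704 by limma). Of genes above background everywhere, 27 higher genes had a gap of over 1, against 1 lower gene.

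Alveolar type 2 cell genes lay lower, mainly in 3 of the 4 LysM-DTR recipients. In whole lung, fewer cells of a type and less RNA per cell cannot be told apart. Of 24 genes, Lyz2 and Lyz1 fell and 22 did not pass; 9 (37.5%) lay wholly below and 1 wholly above, with a median of -1.20. The list mean was -1.91 and -1.66 in LL and -1.56 in WL replicate 2, while WL replicate 1, at -0.01, lay within the wild-type recipients (-0.13 to 0.07). Without WL replicate 1, 22 of 24 (91.7%) lay wholly below, with a median of -1.62, while without WL replicate 2 the median was -0.79.

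Lyz2, whose promoter drives the receptor, was at 4.67 and 4.94 in LL and 8.70 and 7.36 in WL, against 8.84 to 9.09 in wild-type recipients. All 4 LysM-DTR recipients were lower, but WL replicate 1 by only 0.15 from the nearest array. The difference was -2.58 (SE 0.29, adjusted p = 0.0258 by limma), -4.11 with LysM-DTR marrow and -1.04 with wild-type marrow, and the interaction did not pass (adjusted p = 0.162 by limma). Lyz1, its neighbouring close copy, was lower on all 4 LysM-DTR recipient arrays and fell by 2.83 (SE 0.34). Cross-reading between the Lyz1 and Lyz2 probes was not measured. Sftpc was at 7.41 and 7.83 in LL and 9.51 and 7.55 in WL, against 9.57 to 9.81 (difference -1.60, SE 0.41, adjusted p = 0.1 by limma). Etv5, a transcription factor of type 2 cells, was at 2.30 and 2.32 in LL, 4.56 and 2.21 in WL and 4.76 to 4.86 in the others. Surfactant protein B (Sftpb) differed little, at -0.25 (SE 0.13). The protease Ctsh lay wholly above, at 1.06 (SE 0.23, adjusted p = 0.0803 by limma), and of its 3 other probes above background everywhere 2 gave 1.36 and 1.18 and 1 gave -0.32.

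The transitional list holds genes, keratins among them, that mark cells turning from the type 2 to the type 1 identity. All 25 had a difference above 0, with a median of 1.36. None passed the test, and 8 (32%) lay wholly above. The list mean was 1.55 and 1.72 in LL, 0.12 in WL replicate 1 and 2.19 in WL replicate 2. Without WL replicate 1 all 25 lay wholly above, with a median of 1.82, while without WL replicate 2 the median was 0.84. Krt8, the keratin that names the state, was at 6.46 and 6.36 in LL and 4.95 and 7.11 in WL, against 4.75 to 4.83 (difference 1.43, SE 0.44, adjusted p = 0.119 by limma). Hbegf, a ligand of the EGF receptor whose protein is the toxin receptor of sensitive species, was at 4.12 and 4.0 in LL and 2.39 and 4.09 in WL, against 2.18 to 2.30 (difference 1.40, SE 0.35, adjusted p = 0.097 by limma). Whether its probe reads the receptor of the LysM-DTR strain is not stated in the labels. Areg, another ligand of that receptor, had a wider gap of 0.77 and a difference of 2.61 (SE 0.49, adjusted p = 0.0695 by limma), with -0.70 in WL replicate 1 against -2.11 to -1.47 in wild-type recipients.

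Alveolar type 1 cell genes did not move one way (median -0.01; 0.53 with LysM-DTR marrow and -0.36 with wild-type marrow). The sign of that median turned under several settings, for example to 0.47 without both WL arrays. Of 20 genes Spock2 lay wholly above and Rtkn2 and Sema3e wholly below, and 1 rose, the protease inhibitor Timp3 (0.73, SE 0.10), and it overlapped, being higher in LL alone at 6.87 and 6.83 against 5.27 to 5.63 on the other 6 arrays; it was chosen after its values were seen. Ager stood at 0.15 (SE 0.09). Among the airway lists, 4 of 15 ciliated cell genes (26.7%) lay wholly below and none passed (median -0.55), and without WL replicate 1 13 did. Tppp3, a tubulin polymerising protein of cilia, was at 4.88 and 4.37 in LL and 6.27 and 4.73 in WL, against 6.29 to 6.37. Of 14 club and secretory genes none passed, 3 lay wholly below and 1 wholly above (median -0.25). Cyp2f2, a cytochrome P450 of club cells, stood at -1.60 (SE 0.54), and the antimicrobial lectin Reg3g at 1.20 (SE 0.42). Of 7 basal cell genes 3 lay wholly above (median 0.80), with Krt5 at 1.54 (SE 0.37), Krt15 at 2.93 (SE 0.59) and Krt17 at 0.80 (SE 0.19). Krt14, chosen after its values were seen, rose by 1.67 (SE 0.26) although WL replicate 1 lay within the wild-type range.

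**Figure D2:**
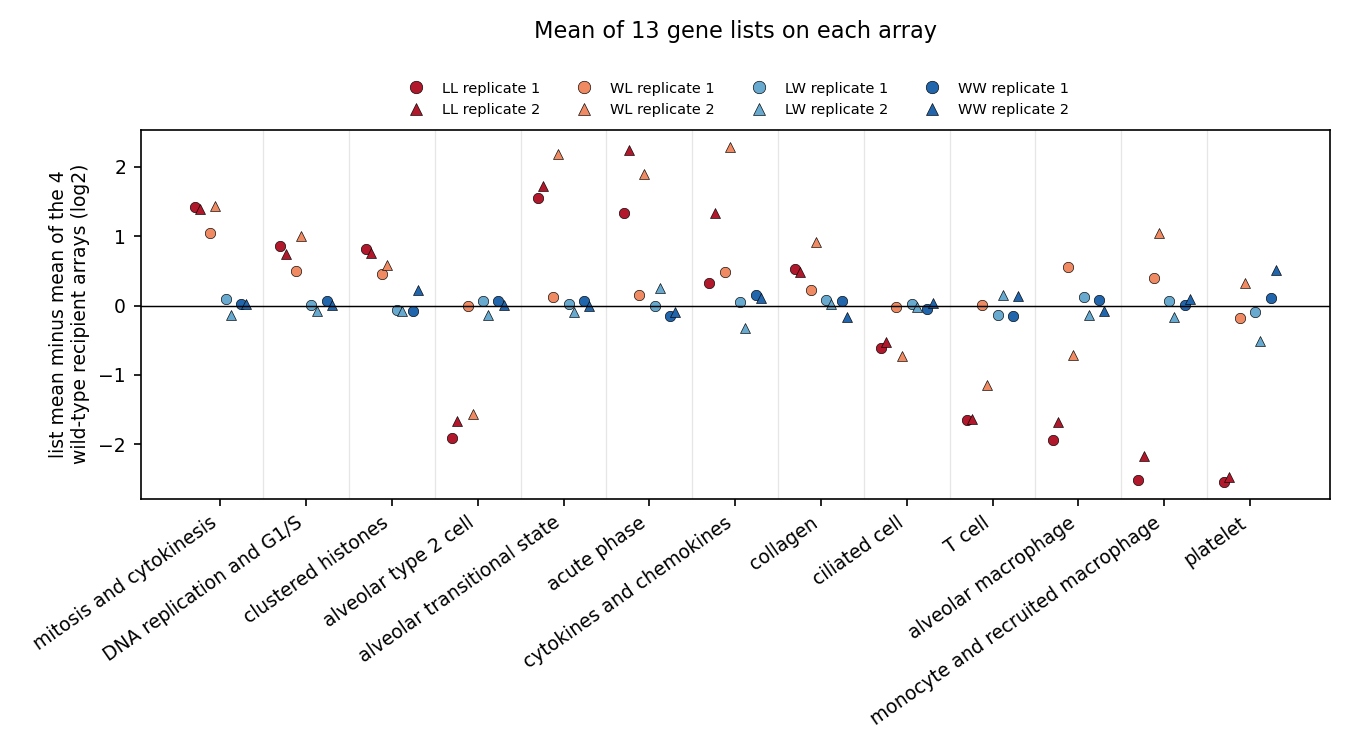
Mean of 13 gene lists on each array, as the difference from the mean of the 4 wild-type recipient arrays (vertical axis, log2); colours are groups and shapes the 2 mice. In the mitosis list WL replicate 1 stands at 1.04, below the other LysM-DTR recipients (1.40 to 1.43) and above all wild-type recipients; in the alveolar type 2 and transitional lists it stands at -0.01 and 0.12, near the wild-type recipients, and in the monocyte list both WL mice lie above 0 and both LL mice below.

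Several macrophage genes were low in LL and not in WL. Of 24 genes of monocytes and recruited macrophages 7 fell and none rose. Only 2 lay wholly above (8.33%) and 1 wholly below (4.17%), against 8.72% and 8.85% of all genes. Without WL replicate 1 these counts were 3 and 2. The list median was -0.67, made of -2.26 with LysM-DTR marrow and 0.69 with wild-type marrow, and the list mean was -2.51 and -2.16 in LL against 0.40 and 1.04 in WL. The 7 were Ccr2, Cx3cr1, Ms4a7, C1qa, C1qc, Clec7a and Cd163, and in each the WL arrays overlapped the wild-type recipients or exceeded them. C1qa, a chain of the complement trigger C1q made by macrophages, was at -3.70 and -3.97 in LL, 1.77 and 2.22 in WL, and 0.67 to 1.1 in wild-type recipients. Its averaged difference of -1.81 (SE 0.17) thus joined -4.72 with LysM-DTR marrow and 1.1 with wild-type marrow, and the interaction passed (-5.83, SE 0.33, adjusted p = 0.0216 by limma).

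C1qa was the first of the 5 genes with the smallest interaction p among genes above background on all 8 arrays in which the marrow groups went opposite ways. Ms4a7, a membrane protein of macrophages, showed the same pattern with a smaller adjusted p of 0.00892 by limma for the interaction, but was above background on 3 of the 4 LysM-DTR recipient arrays. C1qc and C1qb, the other chains of C1q, had interactions of -5.71 (SE 0.39) and -4.44 (SE 0.34). Scimp, an adaptor of antigen presenting cells, had -3.58 (SE 0.26) and Pld4, a phospholipase D family member of myeloid cells, -3.13 (SE 0.28). In all 5, LL lay below and both WL mice above all 4 wild-type recipient arrays. Of the 22588 genes above background everywhere, 956 had LL above LW and WL below WW with no overlap within either pair of groups, and 366 had the reverse. The reverse, which these 5 genes show, was thus the less common pattern.

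No larger share of the monocyte list than of all genes lay wholly apart in either direction. The genes that did, Trem2, Cd14 and Itgam, did not pass. Trem2, a lipid receptor of macrophages, was at 2.0 and 2.41 in LL and 1.88 and 2.67 in WL, against 0.63 to 1.38 (difference 1.19, SE 0.25, adjusted p = 0.0795 by limma). Cd14, the endotoxin co-receptor, lay wholly above at 0.81 (SE 0.32), and the integrin Itgam wholly below by a gap of 0.01 at -0.38 (SE 0.14). Another Itgam probe above background everywhere gave 0.11 and overlapped. Of 19 alveolar macrophage genes none lay wholly apart (11 wholly below without WL replicate 1) and 2 fell, Fabp5 by 1.44 (SE 0.20) and Itgax by 2.09 (SE 0.31), with WL minus WW at 0.00 and -0.04. Of 16 dendritic cell genes none passed and 1 (6.25%, against 8.85% of all genes), the cytokine receptor Flt3, lay wholly below (-0.61, SE 0.22). Without WL replicate 1, 7 did. Another Flt3 probe above background everywhere gave -1.32 and overlapped. On it LL was at -4.35 and -3.74 and WL at -0.65 and -1.33, against -2.05 to -0.73 in wild-type recipients. Of 11 MHC class II genes none passed or lay apart (median -1.65), although without WL replicate 1 9 lay wholly below.

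**Figure D3:**
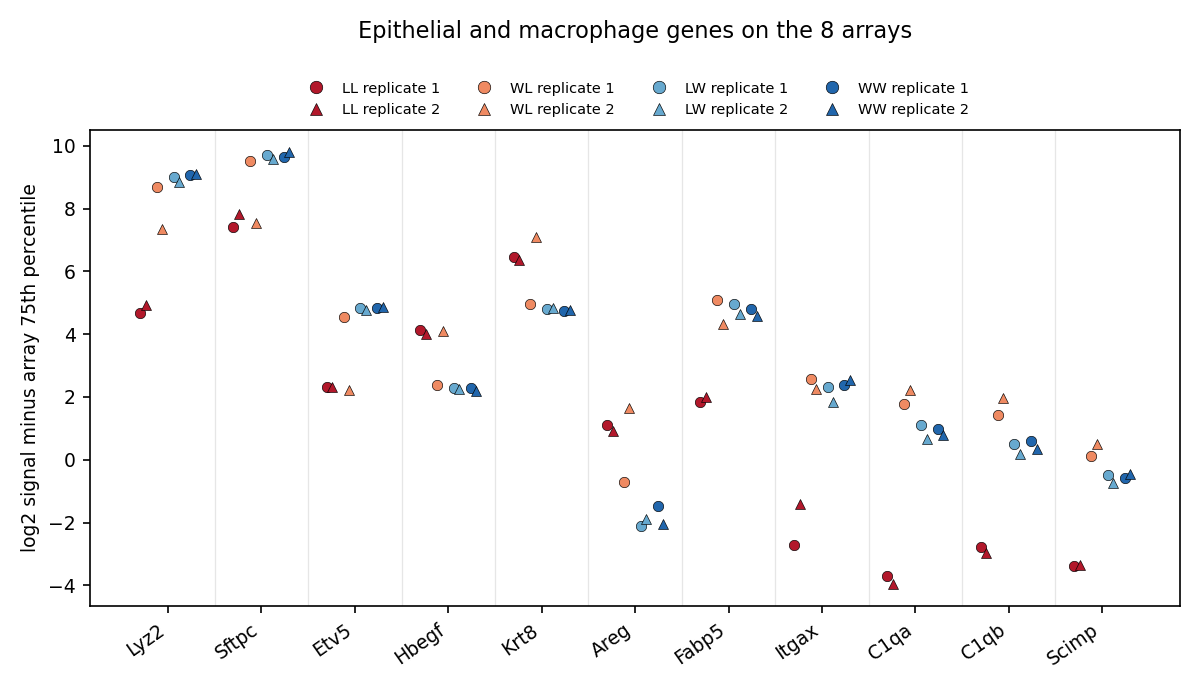
Level of 11 epithelial and macrophage genes on each array (vertical axis, log2 signal minus the 75th percentile of the array). In Lyz2, Sftpc and Etv5 all LysM-DTR recipients lie below and in Hbegf, Krt8 and Areg all lie above, with WL replicate 1 the nearest to the wild-type side; in C1qa, C1qb and Scimp LL lies below and WL above the wild-type recipients.

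The medians of the lymphocyte and platelet lists were below 0, with few genes wholly apart. Of 18 T cell genes none had a difference above 0, 3 lay wholly below and 1 fell (median -1.32). That one was the interleukin 7 receptor Il7r, at 0.34 and 0.43 in LL and 1.70 and 1.32 in WL against 1.82 to 2.27 (difference -1.04, SE 0.15). Lef1, a transcription factor of T cells, was at 0.02 and -0.04 in LL and 0.94 and -0.34 in WL against 1.24 to 1.85. None of 12 B cell genes passed and Pax5, their defining transcription factor, lay wholly below at -0.53 (SE 0.13; list median -1.77). Of 13 NK cell genes the receptors Klrd1 and Klrk1 fell by 1.97 and 1.52, both overlapping, and 1 gene, the pore former Prf1, lay wholly below by 0.01 (median -1.70). With all arrays the B and NK cell counts (8.33% and 7.69%) were close to the 8.85% of all genes wholly below, and the T cell count was 16.7%. Without WL replicate 1, 14 T (77.8%), 11 B (91.7%) and 12 NK cell genes (92.3%) lay wholly below, against 22.3% of all genes. With normexp the T, B and NK cell medians were -0.84, -1.14 and -0.72. Of 12 platelet genes Ppbp, Gp9, Gp1ba and Clec1b fell, all of them overlapping, and Gp6, the collagen receptor, lay wholly below at -0.82 (SE 0.15; median -1.28). The platelet list mean was -2.54 and -2.48 in LL but -0.18 and 0.32 in WL, and the median was -2.02 with LysM-DTR marrow and -0.22 with wild-type marrow. It was -0.34 with normexp background correction and -2.43 without both WL arrays. Leaving out WL replicate 1, 3 of the 12 lay wholly below and 1 wholly above.

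The remaining blood cell lists were near the background. Of 21 neutrophil genes none passed and 3 lay wholly above: lactoferrin (Ltf) at 1.52 (SE 0.34), the surface marker Ly6g at 1.12 (SE 0.26) and lipocalin 2 (Lcn2) at 2.09 (SE 0.59). Their list median was -0.12, and its sign turned under some settings, for example to 0.17 without WL replicate 1. Of 12 red cell genes the erythropoietin receptor Epor lay wholly below (-0.96, SE 0.28), and of 11 mast cell and basophil genes the receptor Kit did (-0.90, SE 0.21). Ptprc, which all leukocytes carry, lay wholly below on its brightest probe by a gap of 0.07, at -0.31 (SE 0.11). Its 3 other probes above background everywhere gave -1.77, -1.91 and -1.71 and overlapped: LL lay far below, WL replicate 2 less so, and WL replicate 1 within the wild-type recipients. Pecam1 of endothelium (0.30, SE 0.17) and Epcam of epithelium (0.24, SE 0.26) overlapped.

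**Figure D4:**
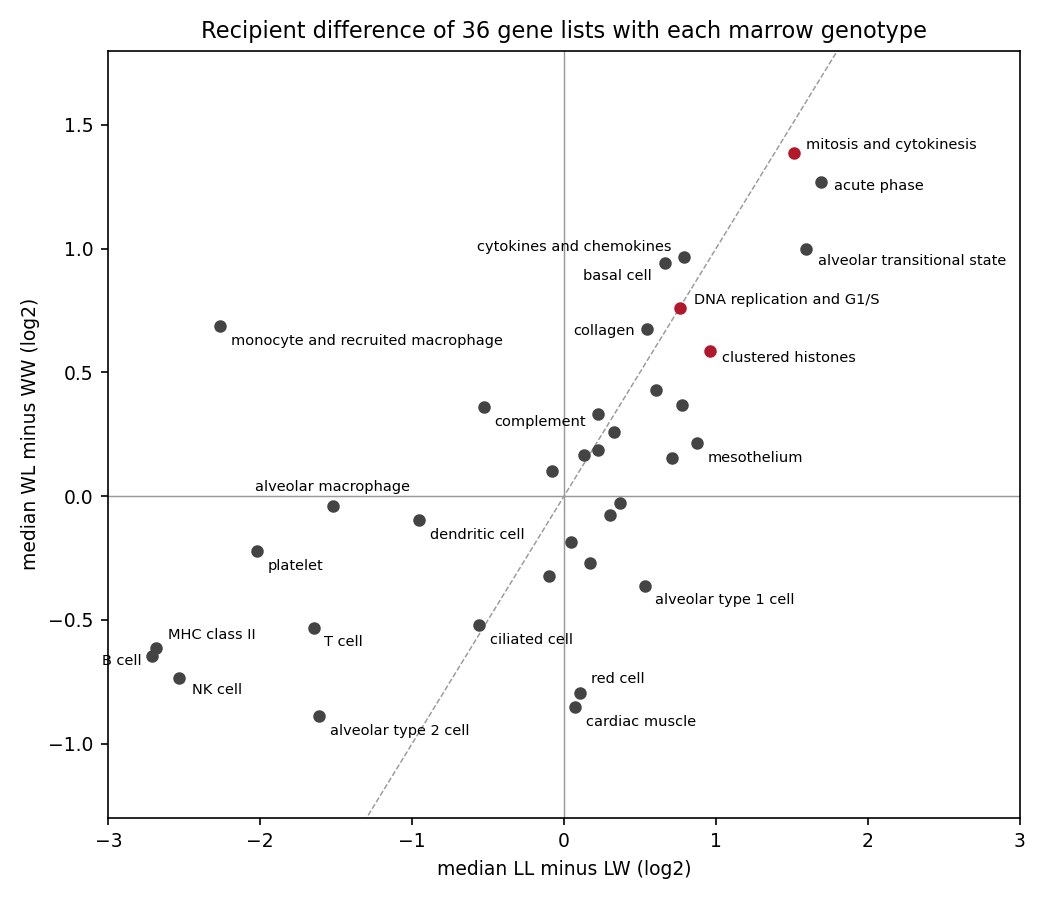
Median recipient difference of 36 gene lists with LysM-DTR marrow (horizontal axis, LL minus LW, log2) and with wild-type marrow (vertical axis, WL minus WW, log2); the dashed line marks equal differences and red points are the cell division lists. The mitosis list lies near the line at 1.51 and 1.39, the lymphocyte lists lie further down with LysM-DTR marrow, and the monocyte list lies at -2.26 and 0.69.

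Growth factors, the subject of the series' title together with injury biomarkers, had few genes apart with all arrays. Relative to the wild-type recipients, the list mean was 0.432 and 0.429 in LL, 0.013 in WL replicate 1 and 0.425 in WL replicate 2. On the wild-type recipient arrays it was -0.08 to 0.053. Of 61 genes none passed, 5 lay wholly above (8.2%) and 4 wholly below (6.56%), close to the background of 8.72% and 8.85%, and the median was 0.10. Among those apart, Areg and Bmp7 (1.01, SE 0.23) were higher. Bmp2 (-0.49, SE 0.10) was lower, as was Igf2, at -2.26 and -2.38 in LL and -2.22 and -2.25 in WL against -1.79 to -1.49. Without WL replicate 1, 21 lay wholly above (34.4%) and 11 wholly below (18%), against 25.3% and 22.3% of all genes. Of 34 injury biomarkers none passed, 3 lay wholly above (8.82%) and 2 wholly below (5.88%), with a median of 0.63. These shares were close to or under the 8.72% and 8.85% of all genes. Leaving out WL replicate 1, 17 lay wholly above (50%) and 4 wholly below (11.8%). The median was 0.42 without LL replicate 2 and 0.37 without WL replicate 2. The protein C receptor Procr was at 1.54 and 2.22 in LL and 0.69 and 1.38 in WL, against 0.09 to 0.54 (difference 1.14, SE 0.22, adjusted p = 0.0704 by limma). Interleukin 6 (Il6) was at -0.31 and 1.40 in LL and -2.90 and 1.99 in WL, against -4.51 to -3.32. The LysM-DTR recipients thus spread widely among themselves, and the difference of 3.79 (SE 1.08) did not pass (adjusted p = 0.112 by limma).

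Of 35 cytokines and chemokines none passed, and 9 lay wholly above (25.7%) and none below, with a median of 0.80. Ccl20, which draws lymphocytes and dendritic cells to epithelium, was at 1.86 and 1.65 in LL and -0.42 and 0.77 in WL, against -2.01 to -0.74 (difference 2.22, SE 0.36, adjusted p = 0.0537 by limma). Cxcl13, a B cell chemokine, stood at 2.46 (SE 0.61) and Cxcl16 at 1.35 (SE 0.34). The neutrophil chemokine Cxcl3 was above background on all 4 LysM-DTR recipient arrays and on no other, and was at least 2.58-fold higher (adjusted p = 0.0645 by limma). Its wild-type recipient values, -6.84 to -6.80, were at background, so the gap of 2.14 is not a measured distance. Leaving out WL replicate 1, 18 of the 35 lay wholly above and 4 wholly below. The list median fell to 0.51 with normexp, 0.39 without LL replicate 2 and 0.53 without WL replicate 2. Of 24 acute phase genes none passed and 5 lay wholly above (20.8%; median 1.35). The serpin Serpina3n was at 3.76 and 4.40 in LL and 0.93 and 4.11 in WL, against 0.55 to 0.69. Lrg1 stood at 1.33 (SE 0.36) and ceruloplasmin (Cp) at 1.08 (SE 0.26), and without WL replicate 1 17 of the 24 lay wholly above. The other Cp probes, all above background everywhere, gave 0.005, 0.347, 0.908 and 0.78, and all overlapped. Of 16 complement genes C1qa and C1qc fell and none lay apart. Of 22 type I interferon response genes none passed, 21 had a difference above 0, and 1, Oas1a, lay wholly above (0.66, SE 0.17; median 0.56), against 14 without WL replicate 1.

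Of 18 collagen genes none passed, 6 lay wholly above (33.3%; Col1a1, Col1a2, Col3a1, Col6a1, Col6a2 and Col18a1), 12 overlapped and none lay wholly below, with a median of 0.58. The gap of Col6a1 was 0.03. Leaving out WL replicate 1, 10 lay wholly above and 1 wholly below. Col3a1 was at 4.43 and 4.76 in LL and 4.04 and 4.81 in WL, against 3.09 to 3.57 (difference 1.11, SE 0.21, adjusted p = 0.071 by limma). Col1a1 stood at 1.08 (SE 0.21) and Col1a2 at 0.56 (SE 0.11), with almost equal values over the marrow genotypes: 1.13 and 1.03 for Col1a1, and 0.55 and 0.57 for Col1a2. Among 24 fibroblast and mesenchyme genes, which include these collagens, 7 lay wholly above and 1 wholly below (median 0.19). The one below was Pdgfrb, a receptor of pericytes, at 1.68 and 1.89 in LL and 2.52 and 1.94 in WL against 2.68 to 3.09 (difference -0.91, SE 0.16). Of 9 mesothelium genes Wt1, a transcription factor of that lining, rose by 1.06 (SE 0.12), at 1.34 and 1.06 in LL but -0.25 and -0.18 in WL against -0.69 to -0.37. Lubricin (Prg4) lay wholly above at 2.71 (SE 0.44, adjusted p = 0.0523 by limma). Of 25 endothelial genes the angiopoietin receptor Tek alone lay apart (-0.25, SE 0.10; median 0.12). Of 16 cardiac muscle genes none passed or lay apart (median -0.38; 0.08 and -0.85 over the marrow genotypes), with Myl4 at -0.80 (SE 0.19) and Tnni3 at -0.60 (SE 0.17).

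With all arrays the stress response lists held few genes apart, and more without WL replicate 1. Those wholly above then went to 11 of 23 for the integrated stress response, 10 of 19 for NRF2 and glutathione and 12 of 20 for the p53 targets, and those wholly below to 3, 2 and 3. Of 23 genes of the integrated stress response, in which cells slow translation and make amino acid enzymes, none passed and 5 lay wholly above (21.7%; median 0.33). The serine synthesis enzyme Psat1 was at 2.67 and 2.56 in LL and 0.83 and 3.24 in WL, against 0.28 to 0.41 (difference 2.0, SE 0.49). Mthfd2 and Shmt2, of mitochondrial one-carbon metabolism, stood at 1.47 (SE 0.41) and 0.82 (SE 0.30), and the transcription factor Atf3 at 1.71 (SE 0.46). Of 19 NRF2 and glutathione genes none passed; haem oxygenase 1 (Hmox1) at 1.28 (SE 0.51) and Gclm at 0.47 (SE 0.16) lay wholly above and Gstm1 at -0.73 (SE 0.29) wholly below. Of 20 p53 targets none passed, Plk2, Aen and Zmat3 lay wholly above and Pmaip1 wholly below (median 0.29). The gap was 0.22 for Plk2 but 0.01 for Aen, 0.007 for Zmat3 and 0.06 for Pmaip1, and another Aen probe lay wholly below at -0.42. Of 23 sterol and fatty acid synthesis genes none passed or lay apart (median 0.06), with the type 2 cell genes Fasn and Acly at -0.82 (SE 0.27) and -0.38 (SE 0.12). Of 16 circadian clock genes Arntl alone (6.25%, against 8.72% of all genes) lay wholly above, by 0.04 (0.64, SE 0.17). Its other probes, both above background everywhere, gave 0.162 and 0.335 and overlapped. Leaving out WL replicate 1, the lists not yet given so had these counts wholly above and wholly below: club and secretory genes 2 and 6 of 14, basal cell genes 4 and 1 of 7, red cell genes 0 and 1 of 12, and mast cell genes 1 and 4 of 11. For neutrophil genes they were 3 and 1 of 21, for endothelial genes 6 and 4 of 25, for fibroblast genes 11 and 6 of 24, and for mesothelium genes 4 and 0 of 9. For cardiac muscle genes they were 0 and 3 of 16, for complement genes 3 and 2 of 16, for sterol genes 3 and 5 of 23, for clock genes 7 and 1 of 16, and for type 1 cell genes 6 and 2 of 20.

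The lower genes with the widest gaps belonged to no list. Zan, which encodes the sperm protein zonadhesin, was at -3.03 and -3.78 in LL and -3.78 and -4.20 in WL, against -1.87 to -1.56 (difference -2.03, SE 0.20, adjusted p = 0.0219 by limma). Another Zan probe above background everywhere showed -0.01 and overlapped. Cdh7, a cadherin, was at -4.52 to -4.23 against -3.38 to -3.26 (difference -1.01, SE 0.11). Its other probes, none of them above background on all 8 arrays, gave -0.83, -0.50, 0.15 and -0.53. Fgfbp3, which binds fibroblast growth factors, fell by 0.95 (SE 0.11) and Bex1, a brain-expressed X-linked gene, by 1.1 (SE 0.15). Myh7, the slow cardiac myosin, was at 0.36 to 0.45 on all 4 LysM-DTR recipient arrays and 1.04 to 1.37 on the others (difference -0.77, SE 0.10). Vmn2r35, of a large receptor family whose members probes may share, fell by 1.47 (SE 0.17). Zfp963, Bex2, Snhg11, Hes2, Mast1 and Afm lay wholly below and did not pass (adjusted p 0.0537 to 0.0832 by limma). Of these Bex2 was at -1.47 and -1.67 in LL and 1.46 and -2.05 in WL, against 2.14 to 2.53. Zan, Cdh7, Vmn2r35, Zfp963, Mast1 and Afm were dim in LysM-DTR recipients (means -4.35 to -3.35). The lowest level counted as above background was lower on those arrays than on LW replicate 1, LW replicate 2 and WW replicate 1. The part of this in the differences of the dim genes was not tested.

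With genes split by level into 5 equal bins, the median difference went from -0.09 in the bin above the dimmest to 0.12 in the brightest. Genes wholly above went from 4.37% of the dimmest to 14.5% of the brightest bin, while genes wholly below stood at 5.67% of the dimmest, 11.1% of the middle and 8.32% of the brightest. The lowest level that counted as above background was -5.44 to -5.08 on the LysM-DTR recipient arrays and on WW replicate 2 (-5.16), but -4.58 to -4.56 on LW replicate 1, LW replicate 2 and WW replicate 1. The part of this in the differences of dim genes was not tested. The share of non-overlapping genes lay between 15.2% (chromosome 7) and 20% (chromosome 13), and within 10 Mb on each side of Lyz2 on chromosome 10 it was 34 of 150 genes (22.7%).

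At the edge of the non-overlap rule, just inside lay Rpl7a and Noc4l among the higher and Trip12 and Zfp397 among the lower genes, and just outside Bola3 and Tmem11, and Dalrd3 and Gmip. Gmip stood at -0.39 and Rpl7a at 0.30, so genes on the 2 sides of the edge had differences of like size. Of the other probes of named genes, 75 were above background on all 8 arrays; 36 fell in the same class as the probe used and 7 had a difference of the opposite sign. Probe positions on mm9 include chromosome 10, 68805423 to 68807832, for Cdk1; chromosome 4, 118105534 to 118105593, for Cdc20; chromosome 10, 116714450 to 116714509, for Lyz2; and chromosome 4, 136452409 to 136452468, for C1qa. Where the probes lie within exons was not analysed here.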

How the data were processed

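Total RNA from the lungs of 8 mice was hybridised to 1-colour Agilent arrays, 1 per mouse. The authors deposited scanner intensity values; the file headers and the submitters' processing notes name Agilent Feature Extraction 11.5.1.1. The deposited series table holds log2 values; set against the scanner values of the same arrays, it is the log2 processed signal with the 75th percentile set to 0, in the same direction and with no centring per gene.

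From the scanner files, log2 of the processed signal minus the 75th percentile of the array was taken and spots of a probe were averaged. Control spots and non-uniform spots were left out (0 to 4 an array), and none was saturated. Probes well above background in both mice of any group were kept, 39595 of 56605 probes, and the brightest probe stood for a gene (25830 genes). Means of the 4 groups were fitted with limma 3.58.1 in R 4.3.3, with p-values adjusted by Benjamini-Hochberg over all genes and a threshold of 0.05. The recipient difference is the mean of LL minus LW and WL minus WW, with 4 residual degrees of freedom. The code was tested on simulated data. Names matched the RefSeq tables (GRCm38.p6) for 18463 genes. Figures were drawn with matplotlib 3.10.9 in Python 3.11.15.

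The members and gene lists were chosen with earlier results of these data known. Genes were named by rule: the 12 widest gaps in each direction, the 3 largest bounds, up to 4 non-overlapping members of each list by p, the 5 smallest interaction p among opposite patterns, 11 genes set by name and the genes at the edge of the non-overlap rule. Other list members named were chosen after their values were seen. The labels do not say whether mice of a group came from separate litters, so p-values measure only the spread between these samples. The number of arrays limits the precision. Replicate numbers did not pair the samples. Alternatives covered background correction, normalization, the filter on dim probes, the probe of a gene, the model, the threshold and leaving out arrays.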

Additional observations from a re-analysis of the deposited data

Results flagged for a closer look

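The values below stood apart from the other 3 arrays of their side by Dixon's test, as 23 of 340 sides of named genes and lists did. The test's chance rate of about 1 in 20 holds for arrays of 1 group. Each side here joins 2 groups, and many of the genes were picked from these same arrays, so the count cannot be set against that rate. WL replicate 1 stood apart in Ect2 (-1.12), Bex2 (1.46), Snhg11 (1.84), Etv5 (4.56), Hbegf (2.39), Tcf7 (-0.54), Cxcl16 (1.41), Bola3 (2.61) and Dalrd3 (3.82), and in the mean of the mitosis list (1.04) and of the growth factor list (0.01). WL replicate 2 did in Tnni3 (1.49). WW replicate 2 stood apart in Iqgap3 (-3.53), Plk2 (0.1), Scgb1a1 (9.68) and Col1a2 (4.93), and in the means of the fibroblast (-0.13) and histone (0.22) lists. LW replicate 2 did in Ctsh (5.47), Spock2 (2.22), Hmox1 (2.02) and the red cell list mean (-0.51), and LW replicate 1 in Ccdc40 (0.18).

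Among the genes named by rule, 5 passed the interaction test of limma: C1qa (-5.83, adjusted p = 0.0216), C1qc (-5.71, adjusted p = 0.0314), Scimp (-3.58, adjusted p = 0.0314), C1qb (-4.44, adjusted p = 0.0348) and Pld4 (-3.13, adjusted p = 0.0433). These 5 are the genes picked for the smallest interaction p among opposite patterns, so their passing is no separate result. Ms4a7, given above and not named by rule, also passed.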

How the results depend on the processing

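With 2 mice a group, the count of called genes moved with most settings, and the cause was not tested. The recipient comparison called 327 genes by limma, against 126 with normexp background correction, 98 with no filter on dim probes, 131 with the replicate block, 114 in an additive model (100 higher, 14 lower), 171 with recipient alone (136 higher, 35 lower), 10235 without both WL arrays and 0 when tested against a 1.5 fold change (1317 at an unadjusted p under 0.05). Leaving out 1 array gave 0 to 12512. LL minus LW called 723 genes, against 291 with no filter, 317 with the replicate block, 146 against the 1.5 fold change and 8483 without both WL arrays, and 4 to 8483 with 1 array left out. WL minus WW called 1 gene and 0 under normexp, no filter, both stricter filters, the replicate block and the trended variance (1921 to 3703 at an unadjusted p under 0.05), and 0 to 9740 with 1 array left out (1295 to 1484 at an unadjusted p under 0.05 where it was 0). The interaction called 16 genes (1 higher, 15 lower), against 10 with normexp, 52 with quantile normalization (12 higher, 40 lower), 1 with no filter, 8 with probes above background on all arrays, 2 with the replicate block and 9 against the 1.5 fold change, and 0 to 2209 with 1 array left out (1591 to 1808 at an unadjusted p under 0.05 where it was 0). Non-overlapping genes numbered 4538, 15485 without both WL arrays and 4983 to 12298 with 1 array left out. All 38 called named genes lost the call without any 1 array of LL, LW or WW, and kept it without either WL array. Of the 38, 22 lost it with no filter, 20 with the replicate block, 13 in the additive model, 12 with normexp, 11 with recipient alone and 38 against the 1.5 fold change. Scgb1a1 turned to 0 under quantile normalization, and Epcam (-0.053 to 0.527 with 1 array left out) to -0.053 without WL replicate 2 and -0.167 without both WL arrays.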
